A study of Xenopus laevis with 6 samples.

Results

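Animal cap tissue of Xenopus laevis in which the kinase ERK3 had been knocked down was compared directly with tissue in which the transcription factor TFAP2A had been knocked down, which used 4 of the 6 arrays of the study (2 per knockdown). The arrays were chosen by the morpholino named in their labels, and no measured value entered the choice. The third group, Control MO (2 arrays), is given for orientation. Each array measured RNA from animal caps on the Affymetrix Xenopus laevis platform, and the values are intensities after robust multi-array averaging (RMA).

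The morpholinos were injected into the animal region of every blastomere at the 4-cell stage, after fertilization in vitro. Embryos of the ERK3 group received ERK3 MO1/2, meaning 40 ng each of 2 morpholinos against ERK3. The TFAP2A group received TFAP2A MO1/2, 40 ng each of 2 morpholinos against TFAP2A, and the controls received 80 ng of Control MO. Caps were cut at stage 9 and harvested at stage 15 in all 3 groups. The labels describe the arrays of a group as independent replicates, without saying whether clutches or pooled caps lie behind each array, so p-values measure the spread between arrays. A morpholino acts on every cell that inherits it and blocks translation or splicing, so the level of the targeted transcript need not fall, and the knockdown itself was not measured on these arrays.

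The animal cap is the prospective ectoderm of the blastula. Cultured alone it becomes a ciliated, mucus-secreting embryonic epidermis, and it can be diverted to mesoderm, endoderm or neural tissue by inducing signals. TFAP2A is an AP-2 family transcription factor that activates epidermal keratin genes in Xenopus ectoderm and takes part in neural crest formation. ERK3, encoded by mapk6, is an atypical mitogen-activated protein kinase. It carries a single phosphorylated serine in its activation loop where classical ERKs carry a threonine and a tyrosine. The comparison asks where depletion of the kinase and depletion of the factor leave the ectoderm in different states.

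The arrays were alike in overall level, with median intensities from 23.2 to 24.6. Log2 intensities correlated at 0.987 to 0.989 within groups and at 0.974 to 0.983 between ERK3 and TFAP2A arrays. The tissue label was checked against markers, by how many lay under the lower quartile on all 6 arrays. This held for 4 of 20 epidermal probe sets, all of them copies of krt12.2 and krt12.6, for 3 of 5 muscle, 3 of 5 blood and 1 of 4 neural markers. Among the neural markers tubb2b.S read 453 and 503 in the controls. The brightest probe set of tfap2a.L read 1817 and 1425 in the ERK3 knockdown, 1495 and 1287 in the TFAP2A knockdown and 1126 and 753 in the controls. The S copy, tfap2a.S, read 1237 and 1056, 718 and 742, and 718 and 528 in the same order. Neither copy passed the test between the knockdowns, with differences of 0.21 ± 0.23 (adjusted p = 0.696) and 0.65 ± 0.18 (adjusted p = 0.113). No probe set carried the symbol mapk6, so ERK3 itself is not analysed here.

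Of 32539 probe sets, 1552 differed between the knockdowns (4.77%) at a limma adjusted p under 0.05, 741 higher (2.28%) and 811 lower (2.49%) in the ERK3 knockdown. Counted as genes, each by its brightest probe set, 644 of 11303 differed (5.7%), with 292 higher (2.58%) and 352 lower (3.11%) in the ERK3 knockdown. All differences below are ERK3 minus TFAP2A knockdown on the log2 scale with the standard error of the fit, and a gene is called when its adjusted p, taken over all probe sets, is under 0.05. The letters L and S name the long and short copies of a gene in this allotetraploid frog. Which calls passed depended on the arrays fitted. Fitted on the 4 knockdown arrays alone, or without either Control MO array, 124 genes were called, 121 of them among the 644. Leaving out ERK3 replicate 1, TFAP2A replicate 1 or TFAP2A replicate 2 left 0 genes called, and leaving out ERK3 replicate 2 left 22, while 5405, 5090, 4876 and 5810 probe sets respectively kept an unadjusted limma p under 0.05. With 1 array left out 2 residual degrees of freedom remain, and the smallest adjusted p without ERK3 replicate 1 was 0.0504. None of the 644 genes changed sign under any of these settings, and for all 644 the log2 difference stayed within 1.5 times of its full value when each knockdown array was left out in turn. Leaving out control arrays changes the estimated spread and not the differences. The genes were called because their difference was large against the spread within groups. Their stability therefore follows in part from the calling and is no separate support for the calls. Where a call is said below to end without an array, it is the adjusted p that was no longer under 0.05.

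The largest differences toward a lower level in the ERK3 knockdown included secreted, kinetochore, mesodermal and glycolytic genes. wfdc2.L, a secreted protein with WAP domains, read 61 and 168 in the ERK3 knockdown, 1472 and 1717 in the TFAP2A knockdown and 2002 and 2856 in the controls. Both ERK3 arrays lay far below the other 4, and the difference was -3.97 ± 0.47 (adjusted p = 0.0193), or 15.7-fold. It ranged from -4.70 to -3.24 when 1 knockdown array was left out. The opposite arrangement was seen for chit1.S, which encodes a chitinase. It read 9.1 and 8.8 in the ERK3 knockdown and 8.8 and 8.5 in the controls but 84.4 and 86.4 in the TFAP2A knockdown, a difference of -3.25 ± 0.12 (adjusted p = 0.00184). The control level thus matched the ERK3 level for chit1.S and lay nearer the TFAP2A level for wfdc2.L. xab2.L, whose product takes part in transcription-coupled DNA repair and splicing, read 57 and 68 against 273 and 259, with 240.2 and 281 in the controls, and differed by -2.09 ± 0.15 (adjusted p = 0.0114). mrto4.L, a factor of large ribosomal subunit assembly, read 49.4 and 57.6 against 238 and 202 and differed by -2.04 ± 0.15 (adjusted p = 0.0114). Its other probe set, at 30.9 to 40.1 on these arrays, differed by 0.26 in the opposite direction and was not called. plekhn1.S differed by -1.89 ± 0.24 (adjusted p = 0.0215), with 11.7 and 19 against 52.1 and 58.8. Without ERK3 replicate 2, wfdc2.L, chit1.S, xab2.L, mrto4.L and plekhn1.S were still called, and without any 1 of the other 3 knockdown arrays none of them was.

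**Figure D1:**
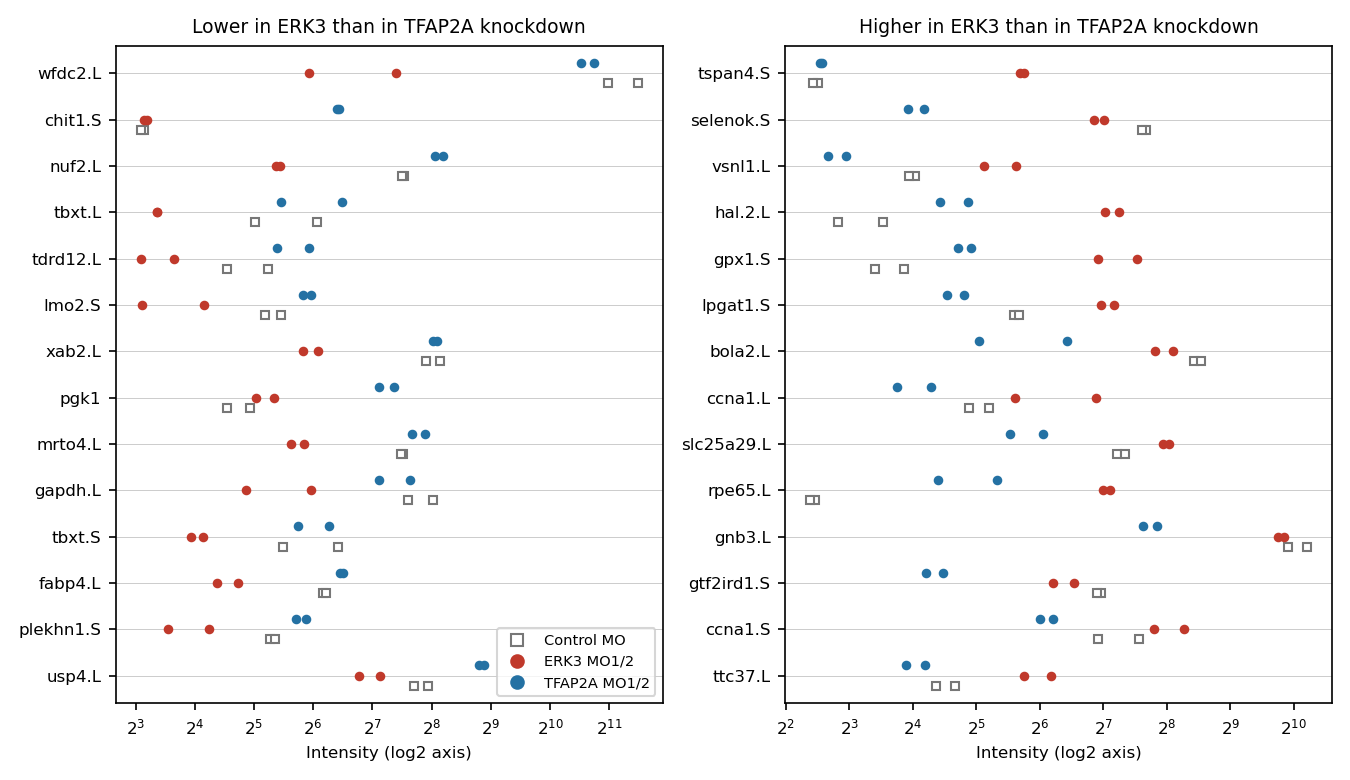
Intensity on each of the 6 arrays (log2 axis) for the 14 genes with the largest called difference in each direction between ERK3 and TFAP2A knockdown. Red and blue points are the ERK3 and TFAP2A arrays and open squares the Control MO arrays. Red and blue points do not overlap for any gene shown, while the squares lie with the blue points for genes such as xab2.L and with the red points for chit1.S.

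Among genes higher in the ERK3 knockdown, tspan4.S, a tetraspanin of the plasma membrane, read 53.9 and 51.6 in the ERK3 knockdown and 5.9 and 5.8 in the TFAP2A knockdown, with 5.7 and 5.4 in the controls. The TFAP2A and control arrays lay under their lower quartile of intensity, so the difference is given as at least 8.0-fold (adjusted p = 0.00184), a bound that puts each array's lower quartile in place of the dim value. selenok.S, a selenoprotein of the endoplasmic reticulum, read 129 and 116 against 15.2 and 18 and 203 and 195 in the controls. It differed by 2.88 ± 0.14 (adjusted p = 0.00425), and a second probe set differed by 1.91 (adjusted p = 0.0188). Here the TFAP2A arrays stood apart from the other 4. vsnl1.L, a neuronal calcium sensor, lay above the control level of 16.4 and 15.3 in the ERK3 knockdown, at 49.4 and 34.9, and below it in the TFAP2A knockdown, at 6.3 and 7.7. Its difference was 2.58 ± 0.20 (adjusted p = 0.012), with 1 of the 2 TFAP2A arrays under its lower quartile. bola2.L, a factor of iron-sulphur cluster handling, read 225 and 275 against 33 and 85.7, and its difference was 2.23 ± 0.42 (adjusted p = 0.045), from 1.54 to 2.91 with 1 knockdown array left out. gtf2ird1.S, of the TFII-I family of transcription factors, read 73.8 and 92.9 against 22.3 and 18.4 and differed by 2.03 ± 0.17 (adjusted p = 0.013). gnb3.L, a G protein beta subunit, read 860.4 and 916 against 198 and 230.4, close to its control level of 962 and 1185 in the ERK3 knockdown, and differed by 2.06 ± 0.16 (adjusted p = 0.012). ttc37.L, a subunit of the SKI complex that assists the RNA exosome, differed by 1.92 ± 0.20 (adjusted p = 0.0171), with 71.9 and 54.1 against 18.3 and 14.9. None of these genes was called when ERK3 replicate 1 or either TFAP2A array was left out, and tspan4.S, selenok.S and vsnl1.L were the ones still called without ERK3 replicate 2.

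Of 46 gene lists, the one with the largest share of called members was the mitosis and kinetochore list. Cells divide by building a bipolar spindle, attaching chromosomes to it through kinetochores, and cutting the cytoplasm at the midzone. In the ERK3 knockdown 21 of its 95 genes were lower and 3 higher than in the TFAP2A knockdown, or 25.3% called against 5.7% of all genes. The share over all genes takes in more dim probe sets than the list does. A filter on dim probe sets kept 92 of the 95 genes but 17434 of all 32539 probe sets. With that filter 1668 of the 17434 probe sets were called, and 23 genes of the list were called lower. The list's median difference was -0.37, against 0.00 over all genes, and 76 of the 95 differences were negative against 5638 of 11303. At an unadjusted p under 0.05, 47 members were lower and 8 higher. Against the controls the list's median was -0.10 in the ERK3 knockdown and 0.26 in the TFAP2A knockdown. In bulk tissue, fewer cells of a type and less RNA per cell cannot be told apart. The median kept between -0.43 and -0.34 in the alternatives run, while the count of lower members was 5 with the 4 knockdown arrays alone, 0 without ERK3 replicate 1 or either TFAP2A array, and 1 without ERK3 replicate 2.

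**Figure D2:**
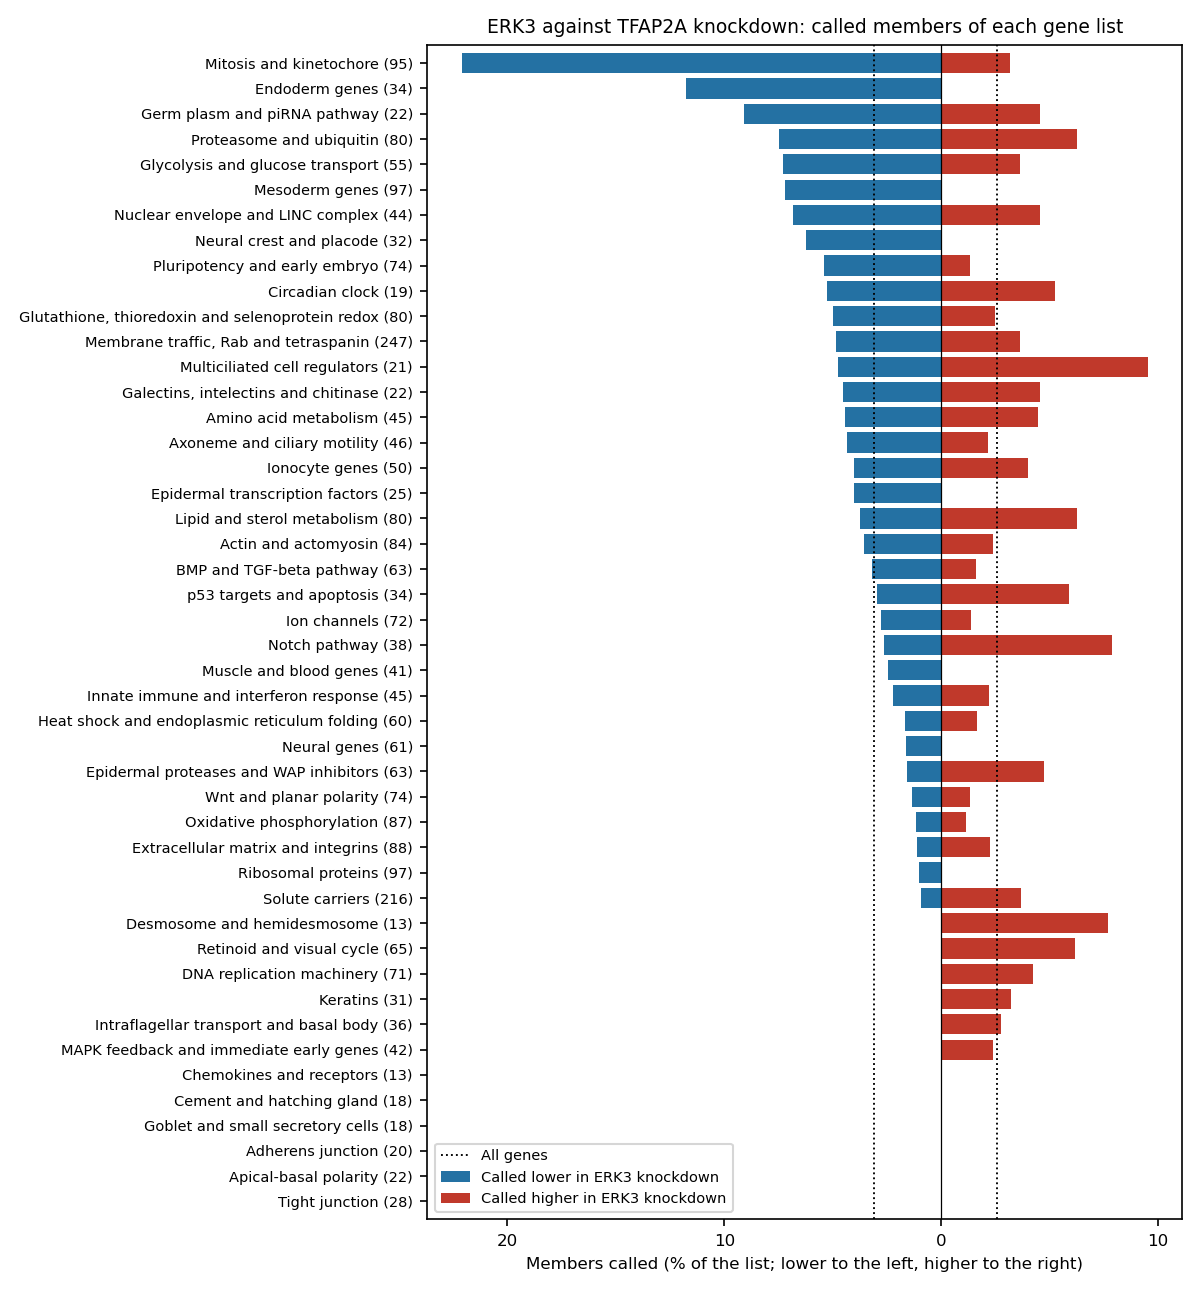
Members called in each of the 46 gene lists, as a percentage of the list (number of genes in parentheses), lower in the ERK3 knockdown to the left in blue and higher to the right in red. Dotted lines mark the shares over all genes, 3.11% lower and 2.58% higher. The mitosis and kinetochore bar is the longest, and 6 lists at the bottom have no called member.

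**Figure D3:**
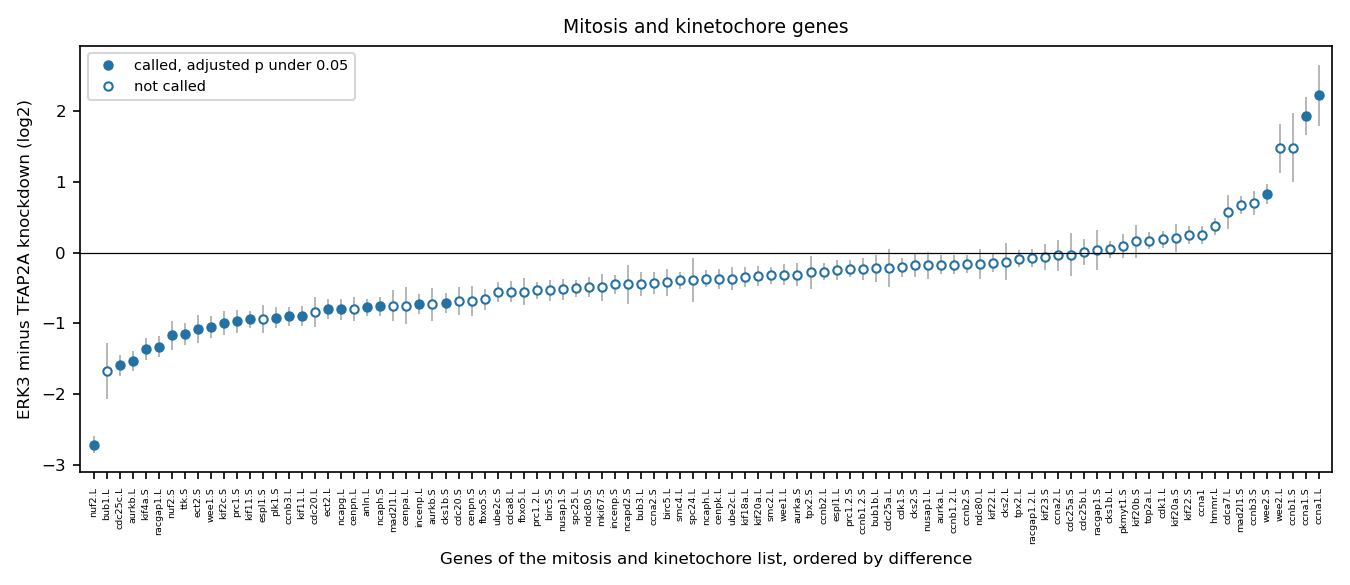
ERK3 minus TFAP2A knockdown difference (log2) for the 95 genes of the mitosis and kinetochore list, ordered by difference. Points are fitted differences, bars their standard errors, and filled points the genes called at an adjusted p under 0.05. Most points lie below 0, with nuf2.L lowest at -2.71, and both called copies of ccna1 form the upper end.

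At the kinetochore, nuf2.L, a subunit of the Ndc80 complex that binds spindle microtubules, read 41.4 and 43.6 in the ERK3 knockdown, 291 and 265 in the TFAP2A knockdown and 186 and 179.9 in the controls. The 3 groups did not overlap, and the difference between knockdowns was -2.71 ± 0.12 (adjusted p = 0.00425), or 6.53-fold. Its difference from the controls was -2.10 ± 0.12 (adjusted p = 0.0068) in the ERK3 knockdown and 0.60 ± 0.12 (adjusted p = 0.0334) in the TFAP2A knockdown. Its other copy, nuf2.S, read 24.8 and 20 against 57 and 44.1 and differed by -1.17 ± 0.20 (adjusted p = 0.0351). All 6 measured genes of the Ndc80 complex had negative differences, and both copies of nuf2 were the called ones. Counts for a complex, here and below, are parts of the list's own count and no separate result. Over the whole list 76 of 95 differences were negative and 25.3% of the genes were called. L and S copies are counted as separate genes. The checkpoint kinase gene ttk.S, chosen after its values were seen, read 14.1 and 16.4 against 37.6 and 30.3 and differed by -1.15 ± 0.16 (adjusted p = 0.0242). It was the 1 called gene of 6 in the spindle checkpoint. nuf2.L alone of these was still called without ERK3 replicate 2, and none was without any 1 of the other 3 knockdown arrays.

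At the spindle midzone, aurkb.L, the kinase of the chromosomal passenger complex, read 250.4 and 308 in the ERK3 knockdown and 806 and 795 in the TFAP2A knockdown, with the controls between at 582 and 620.5. It differed by -1.53 ± 0.14 (adjusted p = 0.0141). All 7 measured genes of that complex had negative differences, 2 of them called, beside 76 of 95 negative and 25.3% called over the whole list. racgap1.L, the GTPase-activating subunit of centralspindlin, read 149.7 and 184 against 410.1 and 426 and differed by -1.33 ± 0.15 (adjusted p = 0.0188). Its S copy differed by 0.04 and was not called. Over centralspindlin, ect2 and prc1, 8 of 9 genes had negative differences and 4 were called. anln.L, which encodes the contractile-ring scaffold anillin, read 204 and 210.1 against 369 and 339 and differed by -0.77 ± 0.12 (adjusted p = 0.0286). Of 11 kinesin genes 4 were called lower, and of 6 condensin genes 2. The kinesin calls, chosen after their values were seen, were kif4a.S at -1.36 ± 0.15, kif2c.S at -1.0 ± 0.17, kif11.S at -0.94 ± 0.12 and kif11.L at -0.89 ± 0.14. kif11 encodes the motor that pushes spindle poles apart. A pair of genes outside the list, also chosen after their values were seen, lay on the same side. cdca5.S, which encodes the sister-chromatid cohesion factor sororin, differed by -1.64 ± 0.16 (adjusted p = 0.0143), and tacc3.L, a spindle protein, by -1.73 ± 0.16 (adjusted p = 0.0141). Of the genes of this paragraph, tacc3.L was called without ERK3 replicate 2, and none was called without ERK3 replicate 1 or either TFAP2A array.

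Regulators of entry into and exit from mitosis were divided. cdc25c.L, the phosphatase that activates Cdk1, read 209 and 266 in the ERK3 knockdown, 732 and 693 in the TFAP2A knockdown and 972 and 916 in the controls. Both knockdowns lay below the controls, the ERK3 arrays further, and the difference between them was -1.59 ± 0.15 (adjusted p = 0.0141). The Cdk1-inhibiting kinase gene wee1.S was lower in the ERK3 knockdown, at -1.05 ± 0.16, whereas wee2.S, of the same kinase family, was higher by 0.83 ± 0.14. Both were chosen after their values were seen. Against the controls, wee1.S differed by 0.03 in the ERK3 knockdown and by 1.08 in the TFAP2A knockdown. For wee2.S these differences were -0.05 and -0.88. The control level of both genes thus lay at the ERK3 level. Opposite to most of the list stood ccna1, the cyclin A gene that Xenopus embryos carry as a maternal transcript. ccna1.S read 309.6 and 222 in the ERK3 knockdown, 63.8 and 73.8 in the TFAP2A knockdown and 121 and 189.5 in the controls, and differed by 1.93 ± 0.27 (adjusted p = 0.0243). ccna1.L read 118 and 48.7, 19.6 and 13.4, and 36.9 and 29.5 in the same order and differed by 2.22 ± 0.43 (adjusted p = 0.0464). The ERK3 arrays of both copies lay above all other arrays, with ERK3 replicate 1 the higher. All 8 genes grouped as acting on the onset of anaphase, among them both copies of the inhibitor fbxo5, had negative differences, and none was called. Leaving out any 1 knockdown array ended the calls of cdc25c.L and both ccna1 copies, with differences for ccna1.L from 1.59 to 2.86.

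Of 71 DNA replication genes 3 were called, all higher in the ERK3 knockdown, or 4.23% against 5.7% of all genes. The list as a whole had no common direction, with 8 genes higher and 10 lower at an unadjusted p under 0.05, 40 of 71 differences negative and a median of -0.06. The 3 were gmnn.L, gins4.L and mcm5.S. gmnn.L, encoding geminin, an inhibitor of replication licensing that also restrains multiciliated cell formation, read 209 and 190.5 in the ERK3 knockdown, 92.9 and 107 in the TFAP2A knockdown and 266 and 249 in the controls. gins4.L, a subunit of the replicative helicase, read 230.2 and 214, 129 and 113, and 424 and 406 in the same order. mcm5.S, another helicase subunit, read 15.9 and 18.7, 9.3 and 9.6, and 29.1 and 27. In all 3 the TFAP2A arrays were lowest and the controls highest, and the differences between knockdowns were 1.0 ± 0.14, 0.88 ± 0.13 and 0.86 ± 0.14. The gmnn.S copy differed by 0.18 and was not called. The L copy of mcm5 was far brighter, at 659 to 794 on all arrays, differed by 0.05 and was not called. Among 34 p53 target and apoptosis genes, 2 were higher and 1 lower (8.82% called). cdkn1a.L, the Cdk inhibitor p21, read 8.8 and 7.3 against 35.2 and 21.6, with 40.6 and 35.2 in the controls, and was lower, at -1.78 ± 0.25. mdm4.S, an inhibitor of p53, and rrm2b.S, a p53-induced subunit of ribonucleotide reductase, were higher by 1.76 ± 0.31 and 1.16 ± 0.22. All 6 calls ended when any 1 knockdown array was left out.

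The called genes of mesoderm and endoderm lay in one direction. Of 97 mesoderm genes 7 were called, all lower in the ERK3 knockdown (7.22%), and of 34 endoderm genes 4 were called, all lower (11.8%), against 3.11% of all genes called lower. The lists share members, and cdx2.L was counted among the calls of both. At an unadjusted p under 0.05, 16 mesoderm genes were lower and 1 higher, and 12 endoderm genes were lower and 0 higher, while over all 11303 genes 1503 were lower and 1172 higher. The medians were -0.05 and -0.31. They were -0.78 and -0.91 over the 22 and 14 genes that passed a filter on dim probe sets, which also keeps genes bright in 1 group alone, and -0.02 and -0.11 with a pseudocount of 16. tbxt, or Brachyury, is the T-box factor of early mesoderm. Its L copy read 10.3 and 10.3 in the ERK3 knockdown, 89.6 and 44 in the TFAP2A knockdown and 66.8 and 32.3 in the controls. The S copy read 17.7 and 15.4, 77 and 53.6, and 85.4 and 45 in the same order. ERK3 arrays lay below all others for both copies, and replicate 1 was higher than replicate 2 in the other groups. The differences were -2.61 ± 0.44 (adjusted p = 0.0337) and -1.96 ± 0.33 (adjusted p = 0.0343), and between TFAP2A knockdown and controls they were 0.43 and 0.05 and were not called. lmo2.S, a cofactor of blood and endothelial progenitors, read 8.6 and 17.8 against 62.4 and 56.9, with 36.3 and 43.8 in the controls, and differed by -2.26 ± 0.33 (adjusted p = 0.0258).

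Among posterior genes, cdx2.L, a caudal homeobox factor, read 116 and 148 in the ERK3 knockdown, 200.1 and 182 in the controls and 283 and 275 in the TFAP2A knockdown, and differed by -1.10 ± 0.16 (adjusted p = 0.0255). The Hox gene hoxd11.L read 14.7 and 11.7 against 31.3 and 30.3 and differed by -1.23 ± 0.18 (adjusted p = 0.0261). For hoxc10.L, at 4.9 and 5.4 against 9.3 and 9.4, the ERK3 arrays lay under the lower quartile and the difference was at least 1.4-fold (adjusted p = 0.0253). The 7th called mesoderm gene, fgf3.L, was chosen after its values were seen. It encodes a fibroblast growth factor and differed by -0.70 ± 0.13. In the endoderm list, gata4.S, a GATA factor of endoderm and heart, read 20.5 and 24.2 against 57.3 and 79.2, with 43.2 and 54.4 in the controls, and differed by -1.59 ± 0.21 (adjusted p = 0.023). gata4.L read 26.5 and 28.5, 56.2 and 55.4, and 56.5 and 56 in the same order and differed by -1.02 ± 0.12 (adjusted p = 0.0189). A second probe set of gata4.S differed by -1.86 (adjusted p = 0.0114), and a second one of gata4.L, under the lower quartile, by 0.04. mix1.S, a homeobox gene of early mesendoderm, was at 4.8 and 4.5 against 8.8 and 8.3, with 4.9 and 5.0 in the controls. It was at least 1.3-fold lower (adjusted p = 0.0231), and the controls lay at the ERK3 level. Of the 7 called mesoderm genes, the control mean lay nearer the ERK3 mean for 3, nearer the TFAP2A mean for 3 and beyond it for 1. Of the 4 called endoderm genes these counts were 2, 1 and 1. The maternal T-box gene vegt, in both lists and chosen after its values were seen, read 70.7 and 92.1 against 319 and 186 for its S copy, a difference of -1.59 ± 0.38 that was not called. lmo2.S was called without ERK3 replicate 2. All the other calls of mesoderm and endoderm genes named here ended when any 1 knockdown array was left out, and that of lmo2.S ended without ERK3 replicate 1 or either TFAP2A array.

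**Figure D4:**
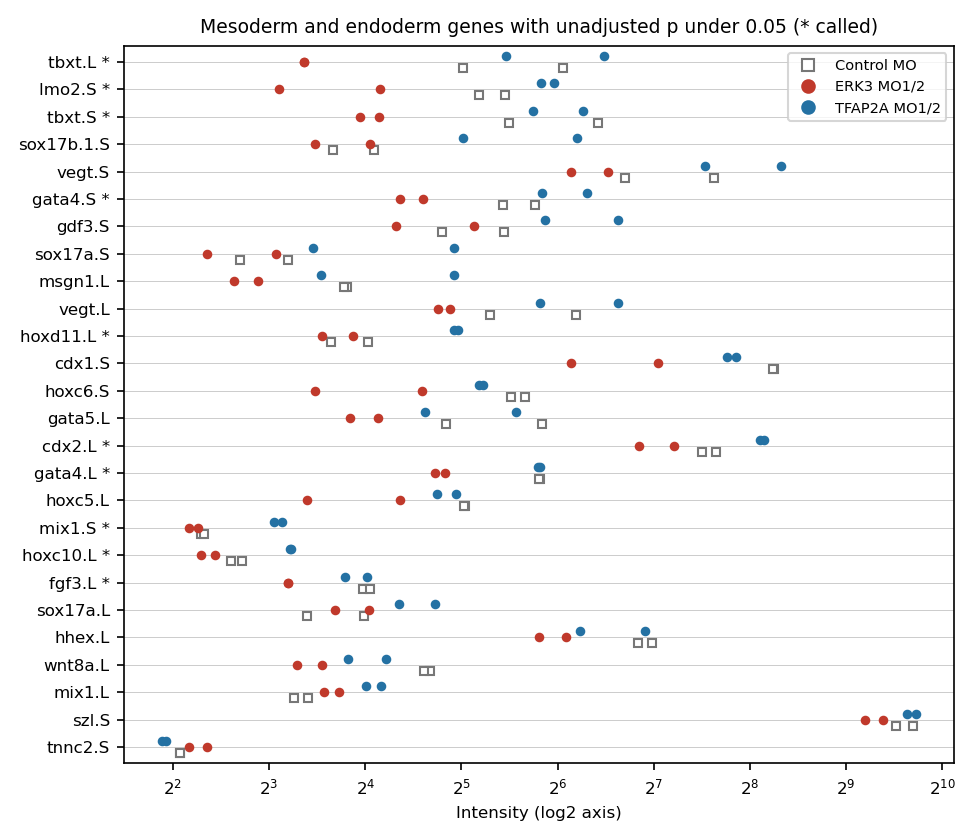
Intensity on each array (log2 axis) for the mesoderm and endoderm genes with an unadjusted p under 0.05 between ERK3 and TFAP2A knockdown, ordered by difference, with called genes starred. Red points (ERK3) lie to the left of blue points (TFAP2A) for every gene but tnnc2.S at the bottom, and the Control MO squares lie on either side.

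Junction and keratin genes were read next. None of 28 tight junction, 22 apical-basal polarity and 20 adherens junction genes was called by limma, where 5.7% of all genes were, and lists of this size would hold few calls at that share. At an unadjusted p under 0.05 stood 2, 8 and 3 of them, and 2675 of all 11303 genes. Medians of these lists were -0.04, 0.10 and 0.06. Of 31 genes of the keratin list 1 was called (3.23% against 5.7% of all genes). The list also holds krtcap2.L and krtcap3.L, which entered through the pattern of their symbols, are not keratins and were not called. The called gene was krt12.5.S, an embryonic epidermal keratin. It read 3934 and 3984 in the ERK3 knockdown, 1072 and 1290.5 in the TFAP2A knockdown and 5065 and 5489.6 in the controls. The TFAP2A arrays stood below the other 4, and the difference was 1.75 ± 0.14 (adjusted p = 0.012), or 3.37-fold. The 20 epidermal marker probe sets include krt12.5.S, the 1 of them that was called, and their median difference was 0.12. With krt12.5.S included, their summed intensity was 23378 and 27007 in the ERK3 knockdown and 20529 and 20519 in the TFAP2A knockdown. In the controls it was 30482 and 33004. The sums are therefore not separate from the call of krt12.5.S. evpl.L, encoding the cornified-envelope protein envoplakin, read 585 and 638 against 343 and 363 and differed by 0.79 ± 0.12 (adjusted p = 0.0281). It was the 1 called gene of 13 desmosome and hemidesmosome genes. klf17.1.S, the 1 called gene of 25 epidermal transcription factors, went the other way, with 103 and 110.3 against 247 and 234 and 417 and 355 in the controls, and differed by -1.17 ± 0.14 (adjusted p = 0.0191). The calls of krt12.5.S, evpl.L and klf17.1.S ended when any 1 knockdown array was left out, with differences from 1.62 to 1.88 for krt12.5.S.

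Specialised cell types of the epidermis gave scattered calls. Of 21 regulators of multiciliated cells, 2 were higher and 1 lower in the ERK3 knockdown (14.3% called, against 5.7% of all genes). The higher ones were foxj1.2.L and gmnn.L. gmnn.L encodes geminin, which restrains multiciliated cell formation, and it was already counted above among the replication genes. foxj1.2.L, of the forkhead family that drives motile ciliogenesis, read 289 and 213 against 124 and 108, with 185 and 216 in the controls, and was higher by 1.10 ± 0.19 (adjusted p = 0.0355). tfdp2.S, a partner of the E2F factors, read 81.9 and 92.1 against 194 and 264, both below the controls at 391 and 547, and was lower, at -1.38 ± 0.23 (adjusted p = 0.032). Of its 6 other probe sets 3 were also called lower and the other 3 had negative differences. dnai1.L, a dynein intermediate chain of motile cilia, read 105 and 95.6 against 45.5 and 41.9 and was higher by 1.19 ± 0.15 (adjusted p = 0.0199), while the ciliary genes cfap36.L and cfap45.L were lower, at -1.08 ± 0.19 and -1.03 ± 0.18. The axoneme list held 46 genes, of which these 3 were called (6.52%). Across 7 multiciliated cell markers, which include the called foxj1.2.L and dnai1.L, the median difference was 0.64. It was 0.18 over the 21 regulators and 0.04 over the 46 axoneme genes. At an unadjusted p under 0.05, 5 regulators were higher and 3 lower, and 3 axoneme genes were higher and 6 lower. The summed intensity of the 7 markers was 6985 and 4836 in the ERK3 knockdown, 4404 and 3542 in the TFAP2A knockdown and 4796 and 4792 in the controls. How far the number of multiciliated cells contributed was not tested. cluap1.L was the 1 called of 36 intraflagellar transport and basal body genes (2.78%), higher by 0.79 ± 0.13.

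In the ionocyte list, 2 of 50 genes were higher and 2 lower (8% called, against 5.7% of all genes). tfcp2l1.S, a grainyhead-related factor found in ion-transporting epithelia, read 617 and 609 in the ERK3 knockdown, 289.8 and 332 in the TFAP2A knockdown and 682 and 822 in the controls, and was higher by 0.98 ± 0.15 (adjusted p = 0.0266). Subunits of the proton pump divided, with atp6v1al.L higher by 1.01 ± 0.19 and atp6v0d1.L lower, at -0.77 ± 0.13. The carbonic anhydrase ca12.L was lower, at -0.88 ± 0.16. None of 18 goblet and small secretory cell genes, 18 cement and hatching gland genes or 13 chemokine and receptor genes was called by limma, and 0, 4 and 1 of them had an unadjusted p under 0.05. Among 61 neural genes 1 was called (1.64%). This was tubb2b.S, a neuronal beta tubulin, at 166 and 204 against 444 and 545 and 453 and 503 in the controls, lower, at -1.42 ± 0.17 (adjusted p = 0.0197). Among 32 neural crest and placode genes, sox8.L and ets1.S were called (6.25%), lower, at -0.87 ± 0.12 and -0.97 ± 0.17. Both encode transcription factors of the crest. Over that list 23 of the 32 differences were positive and the median was 0.13. At an unadjusted p under 0.05, 3 of its genes were higher and 2 lower. The ets1.L copy differed by 0.07, and other probe sets of sox8.L differed by -0.59 and -0.19. None of these was called. myl4.L was the 1 called of 41 muscle and blood genes (2.44%), at least 2.0-fold lower (adjusted p = 0.0449), with ERK3 arrays under the lower quartile. The calls of this paragraph and of the multiciliated genes above did not survive the loss of any 1 knockdown array.

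Of 22 germ plasm and piRNA genes, 2 were called lower and 1 higher in the ERK3 knockdown, against 3.11% and 2.58% of all genes, and 18 of the 22 differences were negative. tdrd12.L, a Tudor-domain protein of the piRNA pathway, read 12.5 and 8.5 in the ERK3 knockdown, 60.9 and 42 in the TFAP2A knockdown and 37.7 and 23.3 in the controls. ddx25.L, an RNA helicase known in Xenopus from germ plasm, read 14.5 and 9.6, 43.5 and 42.3, and 88.1 and 80.8 in the same order. ERK3 arrays were lowest for both, and the differences were -2.30 ± 0.32 (adjusted p = 0.0249) and -1.86 ± 0.21 (adjusted p = 0.0185). dazap2.L, a partner of DAZ proteins, was higher by 0.73 ± 0.13. The pluripotency and early embryo list held 74 genes, of which 1 was called higher and 4 lower in the ERK3 knockdown (6.76% against 5.7% of all genes). The higher one was gs17.L, a gene first named as a gastrula-specific transcript in Xenopus. It read 514 and 702 against 179.5 and 178, with 563 and 579 in the controls, and was higher by 1.75 ± 0.17 (adjusted p = 0.0143). None of the calls of genes named in this paragraph survived the loss of any 1 knockdown array.

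The signalling pathways each gave a few called genes, 4.76% of the BMP and TGF-beta list, 2.7% of the Wnt list, 10.5% of the Notch list and 2.38% of the MAPK list, against 5.7% of all genes. id2.S, a target of BMP signalling that blocks basic helix-loop-helix factors, read 304 and 191 in the ERK3 knockdown, 775 and 865 in the TFAP2A knockdown and 1048 and 1264 in the controls. It was lower, at -1.76 ± 0.24 (adjusted p = 0.0242). The brighter L copy of id2 differed by -0.02 and was not called. In the same list of 63 BMP and TGF-beta genes, the activin receptor acvr2b.S was higher by 0.69 ± 0.12 and the secreted activin antagonist fstl3.L lower, at -1.01 ± 0.20. The Wnt list of 74 genes held 2 called members. fzd8.S, a Wnt receptor, read 194 and 251 against 656 and 702, with 764 and 701 in the controls. It was lower, at -1.62 ± 0.16 (adjusted p = 0.0143). Its other probe sets differed by -0.44, -0.07 and 0.33, and none of them was called. wif1.S, a secreted Wnt inhibitor, read 33.4 and 46.6 against 17.9 and 20.3 and was higher by 1.05 ± 0.20. Of 38 Notch genes 3 were higher and 1 lower. nrarp.S, a feedback inhibitor of Notch, read 462 and 326 against 179.9 and 160.1 and was higher by 1.19 ± 0.20 (adjusted p = 0.033). psenen.S, a gamma-secretase subunit, and rbpj.S, the DNA-binding effector of Notch, were higher by 0.95 ± 0.15 and 0.83 ± 0.13, and lfng.S, a glycosyltransferase that modifies Notch, was lower, at -0.72 ± 0.12. Among 42 MAPK feedback and immediate early genes 1 was called, dusp5.S, a phosphatase of ERK, at 324 and 339.7 against 215 and 174 and 191 and 190.5 in the controls, higher by 0.78 ± 0.15 (adjusted p = 0.0426). The innate immune and interferon list of 45 genes held 2 called members (4.44%). nfkbie.L, an inhibitor of NF-kappaB, was higher by 1.43 ± 0.12, and slfn13.L, of the Schlafen family, was lower, at -1.70 ± 0.24. Of 19 clock genes 2 were called (10.5%), cry1.L, higher by 1.62 ± 0.17, and arntl.L, lower, at -1.04 ± 0.17. Each of these calls ended when any 1 knockdown array was left out.

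The 14 largest differences toward a higher level in the ERK3 knockdown included rpe65.L, a retinoid gene, and gpx1.S, a redox gene. rpe65.L, the isomerohydrolase of the visual cycle, read 138 and 128 in the ERK3 knockdown, 21.1 and 39.9 in the TFAP2A knockdown and 5.5 and 5.2 in the controls. The groups did not overlap, and the difference between knockdowns was 2.19 ± 0.29 (adjusted p = 0.023). The brighter S copy read 467 and 489 against 677 and 532 and differed by -0.33, which was not called. aldh1a2.L, a retinaldehyde dehydrogenase that makes retinoic acid, read 137 and 93.6 against 45.2 and 36.4, with 27.8 and 24.8 in the controls, and differed by 1.48 ± 0.22 (adjusted p = 0.026). Its 6 other probe sets ranged from -0.87 to 1.07, and the lowest was called in the opposite direction (adjusted p = 0.0388), so the probe sets of aldh1a2.L disagree. rxra.L, a retinoid X receptor, was higher by 0.71 ± 0.13. Of 65 genes of this list 4 were called, all higher, or 6.15% against 5.7% of all genes, and at an unadjusted p under 0.05 8 were higher and 5 lower. The remaining called gene was rbpj.S, which entered through the pattern of its symbol and belongs to the Notch pathway. The 8 higher genes also include rbpms2.S and rbpms2.L, which entered in the same way and are not retinoid genes. gpx1.S, a glutathione peroxidase, read 185 and 121 against 26.2 and 30.3, with 10.6 and 14.5 in the controls, and differed by 2.41 ± 0.25 (adjusted p = 0.0171). Its L copy differed by 0.44 and was not called. Of 80 redox genes 2 were higher and 4 lower (7.5% called). The lower ones included txnrd1.L, thioredoxin reductase, at -1.25 ± 0.14, and sephs1.L, a selenophosphate synthetase homologue, at -0.97 ± 0.14. None of these was called when any 1 knockdown array was left out.

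In amino acid metabolism, 2 of 45 genes were called higher and 2 lower (8.89%). hal.2.L, histidine ammonia-lyase, read 129.9 and 152 in the ERK3 knockdown, 21.6 and 29.3 in the TFAP2A knockdown and 11.5 and 7.1 in the controls, and was higher by 2.48 ± 0.27 (adjusted p = 0.0181). Its S copy lay at 4.7 to 5.7 on all arrays. amdhd1.L, an enzyme further along histidine breakdown, read 91.3 and 125 against 232 and 272 and was lower, at -1.23 ± 0.22 (adjusted p = 0.038). oat.1.L, ornithine aminotransferase, was higher by 0.72 ± 0.14 and gldc.S, the glycine decarboxylase, lower, at -0.75 ± 0.14. In glycolysis, 2 of 55 genes were higher and 4 lower (10.9% called, against 5.7% of all genes). pgk1, phosphoglycerate kinase, read 32.6 and 40.5 against 138 and 164, with 30.6 and 23.3 in the controls, and was lower, at -2.05 ± 0.20 (adjusted p = 0.0141). Its pgk1.L copy differed by -0.67 and was not called. gapdh.L read 29 and 62 against 138 and 198, with 195 and 260 in the controls, and was lower, at -1.96 ± 0.39 (adjusted p = 0.049), while gapdh.S differed by 0.40 and was not called. The array's own 3-prime gapdh control probe set followed the L copy, at 42.1 and 84.2 in the ERK3 knockdown, 181 and 243 in the TFAP2A knockdown and 296 and 335 in the controls. pfkfb1.S and pfkfb4.S, both phosphofructokinase regulators, were lower, at -1.20 ± 0.15 and higher by 0.92 ± 0.15, and hexokinase hk1.L was higher by 1.07 ± 0.18. Leaving out any 1 knockdown array ended all of these calls, with pgk1 differences from -2.21 to -1.89.

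Lipid genes were called in both directions, 5 higher and 3 lower of 80 (10% called, against 5.7% of all genes). lpgat1.S, an acyltransferase of phospholipid synthesis, read 124 and 144 in the ERK3 knockdown, 23.1 and 27.9 in the TFAP2A knockdown and 48.5 and 51.1 in the controls. The knockdowns lay on opposite sides of the controls and differed by 2.40 ± 0.15 (adjusted p = 0.00949). The L copy differed by -0.10 and was not called. agpat3.L, another acyltransferase, and ppara.L, a nuclear receptor for fatty acids, were higher by 1.19 ± 0.16 and 0.94 ± 0.12. fabp4.L, a fatty acid binding protein, read 20.7 and 26.5 against 87.2 and 90.6, with 71.8 and 74.6 in the controls, and was lower, at -1.92 ± 0.15 (adjusted p = 0.012). elovl1.S, a fatty acid elongase, was lower, at -0.98 ± 0.14. Of 216 solute carriers 8 were higher and 2 lower (4.63% called). slc25a29.L, a mitochondrial carrier of basic amino acids, read 262 and 246 against 66.1 and 46.1 and was higher by 2.20 ± 0.19 (adjusted p = 0.013). slc25a28.S, mitoferrin 2, and slc3a2.S, the heavy chain of several amino acid transporters, were higher by 1.09 ± 0.13 and 1.14 ± 0.15. A second probe set of slc25a28.S went the opposite way, at -1.03 ± 0.24, and was not called, so its probe sets disagree. slc38a2.L, a neutral amino acid transporter, was lower, at -1.15 ± 0.17. In oxidative phosphorylation cox7a2l.L was higher by 1.20 ± 0.19 and atp5mc1.S lower, at -0.95 ± 0.12, the 2 called of 87 (2.3%). Of the genes in this paragraph, lpgat1.S and fabp4.L were called without ERK3 replicate 2, and none without ERK3 replicate 1 or either TFAP2A array.

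Among 80 genes of the proteasome and ubiquitin list, 5 were higher and 6 lower (13.8% against 5.7% of all genes), with a median of 0.00. The filter on dim probe sets kept 74 of the 80, so the list holds a smaller share of dim genes than the array. The lower ones include psmc3ip.L, at -0.88 ± 0.16, which entered through the pattern of its symbol and encodes no proteasome subunit. psmc3.S, a proteasome ATPase, read 38.7 and 38.4 in the ERK3 knockdown, 16.2 and 16.7 in the TFAP2A knockdown and 33.8 and 35.7 in the controls, and was higher by 1.23 ± 0.12 (adjusted p = 0.0141). psmd12.S, a lid subunit, read 448 and 399, 177 and 176, and 376 and 370.4 in the same order and was higher by 1.26 ± 0.12 (adjusted p = 0.0141). For both the ERK3 arrays lay near the controls and the TFAP2A arrays below. The brighter L copy of psmc3, at 340 to 497 on all arrays, differed by -0.14 and was not called. The L copy of psmd12 was called higher, by 0.65 ± 0.13. psmd5.L, an assembly chaperone of the proteasome, read 76.4 and 77.6, 156 and 172, and 87 and 87 and was lower, at -1.09 ± 0.12 (adjusted p = 0.0181). usp4.L, a deubiquitinase, read 109.9 and 140.4 against 470.3 and 447 and was lower, at -1.88 ± 0.17 (adjusted p = 0.0134), whereas its other probe set differed by 0.32 and was not called. Proteasome subunits were also among the lower genes. psma4.S was lower, at -1.18 ± 0.15 (adjusted p = 0.0224), and psmd14.L, at -0.72 ± 0.14 (adjusted p = 0.048). These subunit genes were chosen after their values were seen, and whether their calls held with an array left out is not given here. Of 247 membrane traffic genes 9 were higher and 12 lower (8.5% called). rab5d.L and rab7a.S, small GTPases of early and late endosomes, were lower, at -1.25 ± 0.12 and -1.11 ± 0.12. rab7a.S read 165 and 156 in the ERK3 knockdown and 168 and 153 in the controls against 354 and 340.1 in the TFAP2A knockdown. The copies of snx12, a sorting nexin, were called in opposite directions. snx12.S read 39.1 and 36.6 against 16.4 and 15.4 and was higher by 1.25 ± 0.12, and snx12.L read 444 and 435 against 848 and 924 and was lower, at -1.01. Of these genes usp4.L was called without ERK3 replicate 2, and none without ERK3 replicate 1 or either TFAP2A array.

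Structural genes completed the named set. In the nuclear envelope list 2 of 44 were higher and 3 lower (11.4% called, against 5.7% of all genes). The nucleoporin nup85.L was higher by 1.03 ± 0.15, while nup160.L, another nucleoporin of the same subcomplex, was lower, at -0.70 ± 0.13, as were the lamin lmnb2.S, at -1.21 ± 0.20, and tor1a.L, an ATPase of the perinuclear space, at -1.07 ± 0.18. Of 84 actin and actomyosin genes 2 were higher and 3 lower (5.95% called). tpm4.L, a tropomyosin, read 133 and 97.5 against 283 and 303, with 337 and 332 in the controls, and was lower, at -1.37 ± 0.17 (adjusted p = 0.0215). actn4.L, an actin crosslinker with 1 of 2 ERK3 arrays under its lower quartile, was lower, at -1.27 ± 0.20, and arpc1a.S, of the Arp2/3 complex, higher by 1.14 ± 0.15. In the matrix list of 88 genes 3 were called (3.41%). The integrin itga3.L and the collagen col1a2.L were higher by 1.05 ± 0.16 and 1.26 ± 0.16. The metalloproteinase mmp28.S, also dim on 1 of 2 ERK3 arrays, was lower, at -1.21 ± 0.17. serpinh1, the collagen chaperone, was higher in both copies, at 83.5 and 86.5 against 32 and 26.2 for serpinh1.S and at 80.7 and 96.7 against 46.4 and 51.5 for serpinh1.L. The differences were 1.56 ± 0.19 (adjusted p = 0.0196) and 0.85 ± 0.14 (adjusted p = 0.0343). The list of epidermal proteases and WAP inhibitors held 63 genes, of which 3 were called higher and 1 lower (6.35%). The protease ctsd.S was higher by 1.26 ± 0.23. The list of galectins, intelectins and chitinase held 22 genes, of which 1 was called higher and 1 lower (9.09%). lgals4.1.s, a galectin, read 58.9 and 58.1 against 20 and 23.6, both above 5.7 and 7.0 in the controls, and was higher by 1.43 ± 0.16. Among 72 ion channel genes 3 were called (4.17%). kcnk1.S, a potassium channel, was at least 2.7-fold lower (adjusted p = 0.0281). itpr1.S, a calcium release channel, was lower, at -1.08 ± 0.15, and clcn7.L, a lysosomal chloride exchanger, higher by 0.65 ± 0.12. The heat shock and folding list of 60 genes held 2 called members (3.33%), sdf2l1.L, higher by 1.0 ± 0.12, and hspa4.L, lower, at -0.65 ± 0.12. At an unadjusted p under 0.05, 1 gene of that list was higher and 10 were lower. Of 97 ribosomal protein genes 1 was called (1.03%), rpl34.S, lower, at -0.84 ± 0.15. All calls of genes named in this paragraph ended when any 1 knockdown array was left out.

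Where the Control MO level lay is given as a description, since all 3 comparisons share arrays. Against the controls, 1337 of 11303 genes were called in the ERK3 knockdown (11.8%) and 1392 in the TFAP2A knockdown (12.3%). Of the 292 genes higher in the ERK3 knockdown, the control mean lay nearer the TFAP2A mean, between the knockdowns, for 65 and beyond it for 48. It lay nearer the ERK3 mean for 97 and beyond it for 82. Of the 352 genes lower in the ERK3 knockdown, the control mean was between the knockdowns and nearer the TFAP2A mean for 139 and beyond it for 73, and nearer the ERK3 mean for 97 and beyond it for 43. tbxt.S and xab2.L are examples with the controls at the TFAP2A level. rab7a.S, chit1.S and gnb3.L have the controls near the ERK3 level. lpgat1.S, vsnl1.L and nuf2.L have the controls between, with both knockdowns called against them in opposite directions. gpx1.S, hal.2.L and rpe65.L were above the controls in both knockdowns, and cry1.L, gins4.L and ddx25.L below them in both. For those 6 the knockdowns differed in how far they lay from the controls.

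**Figure D5:**
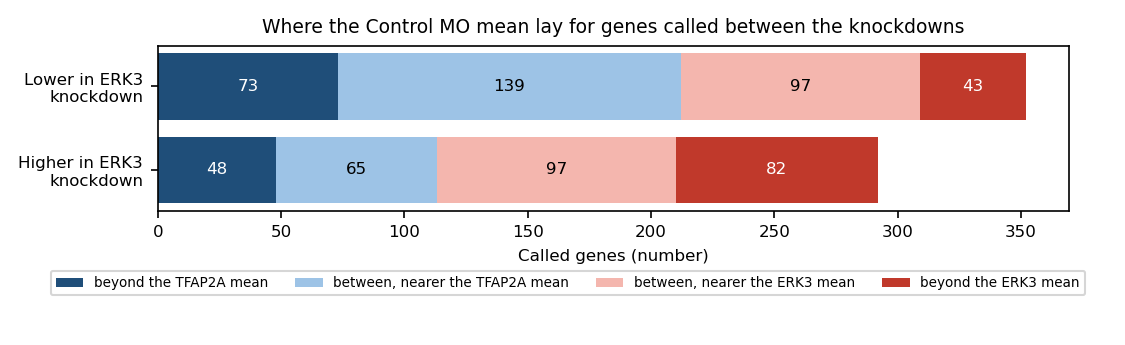
Number of genes called between ERK3 and TFAP2A knockdown, by where the Control MO mean lay relative to both knockdown means, for genes lower (upper bar) and higher (lower bar) in the ERK3 knockdown. Dark blue and light blue count genes with the control mean beyond or nearer the TFAP2A mean, and light red and dark red those nearer or beyond the ERK3 mean. The light blue segment is the longest for lower genes (139) and the light red for higher genes (97).

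Homeologues and second probe sets were counted over all called genes, and those of some named genes are given above. Of the 644 called genes 231 had their other L or S copy on the array. In 168 of these the other copy differed in the same direction and in 32 it was also called that way, with a median difference of 0.25 in the called direction. The called genes had 261 other probe sets of the same gene, several for some genes. Of these probe sets 216 had the same sign and 59 were also called that way. tbxt, nuf2, ccna1, gata4 and serpinh1 were called in both copies, whereas racgap1, lpgat1, rpe65 and hal.2 were called in one. For some other named genes the other copy differed in the opposite direction and was not called. Examples are arntl.S at 0.59, agpat3.S at -0.48, lfng.L at 0.34, actn4.S at 0.32, hspa4.S at 0.28 and cfap45.S at 0.10. Copies share sequence, so a probe set may read both.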

How the data were processed

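Gene expression was measured in animal cap RNA of 3 groups of 2 samples on Affymetrix Xenopus laevis arrays. Per the labels' protocols and the design text, 250 ng of RNA was labelled by a 3' in vitro transcription kit (the sources name different versions of the kit), scans were handled with GeneChip Operating Software 1.4, and the authors deposited RMA intensity values from Expression Console, of unstated version. In RMA the background is removed, arrays are brought to one distribution and probes are summarized, which compresses differences of dim probe sets. The deposited intensity is linear, and log2 of it was taken here. Precision is limited by the number of arrays.

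Of 32635 probe sets 96 controls were left out. Names came from the platform annotation: 15495 probe sets had 1 symbol, 279 several and 16765 none, and 15384 matched a RefSeq entry of Xenopus_laevis_v10.1 by gene identifier, which updated 2 symbols. A gene was represented by its brightest single-symbol probe set. limma 3.58.1 (R 4.3.3) was fitted to all 6 arrays with 1 mean per group (3 residual and 2.99 prior degrees of freedom), and p-values were Benjamini-Hochberg adjusted over 32539 probe sets. The procedure was tested on simulated data. A value under its array's lower quartile was treated as dim, and a fold against a group with all arrays dim is given as a bound.

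The arrays compared, the 46 gene lists and the tests were chosen with earlier results of these data known. Named are the 14 largest called differences in each direction whose groups did not overlap, up to 4 called members of each list by adjusted p, every copy of the targeted genes, and other copies or probe sets of named genes; genes named outside this rule are said to be chosen after their values were seen. Promoter motifs, planned at the outset, were not analysed here.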

Additional observations from a re-analysis of the deposited data

How the results depend on the processing

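Of the 644 genes called between the knockdowns, 593 were called in the same direction with a filter on dim probe sets, 611 with median centring, 504 with a pseudocount of 16, 620 with quantile normalization and 584 with a trended, robust prior. None changed sign in any alternative run. The filter, the trended prior and the fits lacking Control MO arrays keep the differences themselves, so in these no sign could change. Fitting the 4 knockdown arrays alone called 295 probe sets (154 higher, 141 lower in the ERK3 knockdown), 124 genes (62 higher, 62 lower) and 5 lower genes of the mitosis list. Leaving out each array in turn gave 0 to 295 called probe sets (0 to 154 higher, 0 to 141 lower), 0 to 124 genes (0 to 62 higher, 0 to 62 lower) and 0 to 5 lower mitosis genes. The lone array left in a group is then assumed to vary like the others, and the residual degrees of freedom fall. The 1 probe set called without either TFAP2A array has no gene symbol. Apart from psma4.S and psmd14.L, 135 genes were named by the rule or chosen after their values were seen, and 132 of them were called. Of these 132, 87 lost their call with the 4 knockdown arrays, 118 without ERK3 replicate 2, and all 132 without any 1 of the other knockdown arrays. A pseudocount of 16 ended 28 of these calls, the mean over a gene's probe sets 16, the trended prior 6, and median centring and quantile normalization 1 each.

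The labels number the arrays 1 and 2 in every group without stating a shared batch. Deviations of same-numbered arrays from their group means correlated at 0.54 (control and ERK3), 0.55 (control and TFAP2A) and 0.59 (ERK3 and TFAP2A). With the replicate number as a block, 4831 probe sets were called (2229 higher, 2602 lower), 1948 genes (833 higher, 1115 lower, with all 644 among them) and 35 lower mitosis genes. Of the 3 uncalled genes among the 135, the block turned tfap2a.S and vegt.S into calls. Uncalled other copies and probe sets were not counted here.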

Other observations

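Some of the largest differences belonged to probe sets without a gene symbol. Xl2.55361.1.A1_at read 346 and 326 in the ERK3 knockdown, 5.8 and 8.5 in the TFAP2A knockdown and 5.5 and 5.3 in the controls, a difference of 5.58 ± 0.20 on the log2 scale (limma adjusted p = 0.00184), and it was the 1 probe set still called when either TFAP2A array was left out. Of its 2 TFAP2A arrays 1 lay under the lower quartile of intensity, as did both controls, so the size of the difference is uncertain at that end. Xl2.43077.1.S1_at read 158 and 167, 6.7 and 10.4, and 35.3 and 22 in the same order and differed by 4.29 ± 0.29 (adjusted p = 0.0107). On the lower side, Xl2.6654.1.S1_at read 13.3 and 13.6 in the ERK3 knockdown, 100.2 and 134 in the TFAP2A knockdown and 13.4 and 11.9 in the controls, a difference of -3.11 ± 0.17 (adjusted p = 0.00716). Xl2.32109.2.A1_x_at read 9.6 and 17.5, 188 and 94.8, and 9.5 and 14.5 in the same order and differed by -3.37 ± 0.43 (adjusted p = 0.022). These probe sets are unnamed here.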
